A study of Mus musculus with 5 samples.

Results

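Polyamine metabolism was represented by 10 genes, chosen by name from the 23420 rows of a table of gene counts: *Arg2*, *Odc1*, *Oaz1*, *Oaz2*, *Azin1*, *Amd1*, *Srm*, *Sms*, *Sat1* and *Smox*. All 10 symbols were found. The counts came from 5 RNA-seq libraries of the uterine luminal layer, the epithelial lining that a blastocyst first touches, cut out by laser microdissection from wildtype mice of the strain C57BL/6N in early pregnancy. There was 1 library each from the morning of day 3, the morning of day 4 and the evening of day 4, and 2 from the morning of day 5. Of the day 5 libraries, 1 was of the layer lying apart from the attached embryo (labelled Mpole, M for the mesometrial pole) and 1 of the layer around the embryo (labelled Ampole, AM for the anti-mesometrial pole). In the day 5 pair, pole and nearness to the embryo go together and cannot be told apart. The libraries of days 3 and 4 carry no label of a pole. No library carried a mutation or a treatment, and the age of the mice was not given. The methods describe pooling of RNA from several samples for other groups of the study, and whether it applies to these libraries is not stated in the sources used here. With 1 library per condition there was no spread between replicates and no condition could be tested, so each value or call below compares 2 libraries and not the 2 conditions.

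Putrescine, spermidine and spermine are small positively charged molecules that bind nucleic acids and are needed for cell growth and translation. Arginase makes ornithine from arginine, ornithine decarboxylase turns ornithine into putrescine, and the spermidine and spermine synthases lengthen it with aminopropyl groups from decarboxylated S-adenosylmethionine. Acetylation and oxidation lead back to the shorter amines. Antizymes bind ornithine decarboxylase and send it to the proteasome, antizyme inhibitors take the antizymes away from it, and frameshifting on antizyme mRNA responds to the polyamine level itself. In the rodent uterus, ornithine decarboxylase activity is known to increase around implantation and decidualization.

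In the library from around the attached embryo, *Odc1* (ornithine decarboxylase, the entry step of the pathway) was at 240 CPM (counts scaled to 1000000 per library), against 33.4 to 65.9 CPM in the other 4 libraries. *Smox* (spermine oxidase, which turns spermine back into spermidine) was at 320 CPM around the embryo but at 48.9 CPM in the layer away from it on the same morning. It was higher still, at 398.9 CPM, on the morning of day 4 and was at 237.5 CPM that evening. *Sat1* (spermidine/spermine acetyltransferase, the start of polyamine breakdown and export) had the highest level per length of the measured members in all 5 libraries. *Srm* (spermidine synthase) was highest in the 2 day 5 libraries, while *Azin1* (antizyme inhibitor) was highest in the evening of day 4 and *Arg2* (arginase 2) lowest then. *Sms* (spermine synthase) and *Oaz2* (antizyme 2) stayed within 1.97-fold and 1.49-fold over all libraries. *Amd1* and *Oaz1* had no usable counts.

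**Figure D1:**
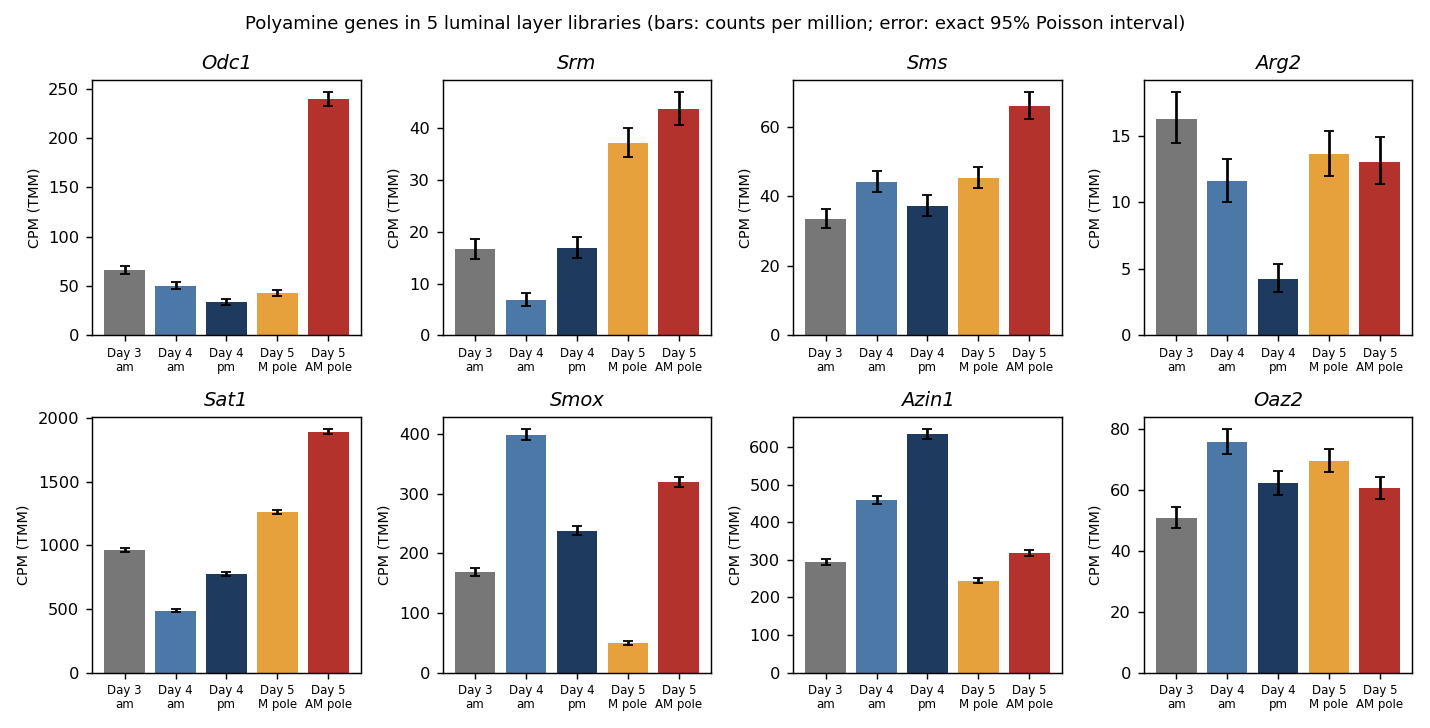
CPM (vertical axes, linear from 0, a separate scale for each gene) of the 8 measured polyamine genes in the 5 libraries (horizontal axes), where bars are single libraries and error bars exact 95% Poisson intervals. *Odc1* stood at 240 CPM in the AM pole library against at most 65.9 elsewhere, and *Smox* was lowest, at 48.9 CPM, in the M pole library.

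The total counts ranged from 15334674 to 19529491 per library, so that a floor of 3 counts was at 0.161 to 0.190 CPM. CPM values were scaled by TMM, a method that lines up the bulk of genes between libraries. Differences are between log2 CPM values, to which a prior count of 2 was added before the logarithm. Only genes averaging 1 CPM or more were kept, namely 12915 genes with 8 of the 10 members. Brackets after a difference or a ratio give its exact 95% interval by the Clopper-Pearson method, and those after a level the exact 95% Poisson interval. All intervals cover counting error only, and PCR copies in these amplified libraries are not independent molecules. A gene is called higher or lower past 2-fold when its log2 difference is beyond 1 in size.

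Epithelial markers were the most abundant list of markers in all 5 libraries, with 10 of 10 above 3 counts and a summed level of 5624 to 9140 CPM. Stromal and decidual markers summed to 578 to 828 CPM and were lowest in the AM pole library, where *Col3a1*, *Dcn* and *Lum* were low, but 5 of the 13 (*Hand2*, *Bmp2*, *Pdgfra*, *Pdgfrb* and *Col1a1*) were highest there. That library also differed in other lists. All 13 embryo and trophoblast markers were above 3 counts in it and they summed to 137 CPM, against 5.47 to 13.8 CPM and 4 or 5 of the 13 in the other libraries, where *Cdx2*, *Hand1*, *Pou5f1*, *Nanog* and *Fgf4* were at 0. Smooth muscle markers summed to 392 CPM in it against 10.8 to 31.6 (most of it *Des*), and leukocyte markers to 87.3 against 226 to 327. The leukocyte difference was mostly *Lyz2* (41.1 CPM against 187.4 to 286.5), and *Ptprc*, *Csf1r* and *Itgam* were also lowest there. *Cd68* of the same list was highest there (38.9 CPM against 9.99 to 17.7). Endothelial markers summed to 108 CPM in it against 15.1 to 51.5, of which *Cdh5* alone made 71.4 CPM, while *Kdr* and *Emcn* were at their lowest there. Glandular markers summed to 6.54 CPM in the M pole library and to 18.1 to 37.6 CPM in the other 4, a difference carried by *Sox9* (3.43 CPM against 14.98 to 36.1), whereas *Prss28* and *Prss29* were detected in the day 5 libraries alone. Both measured globin genes were at 0 throughout. The part of these other cells in any polyamine value, above all of the AM pole library, was not tested. In such bulk RNA, fewer cells of a type and less RNA per cell cannot be told apart.

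**Figure D2:**
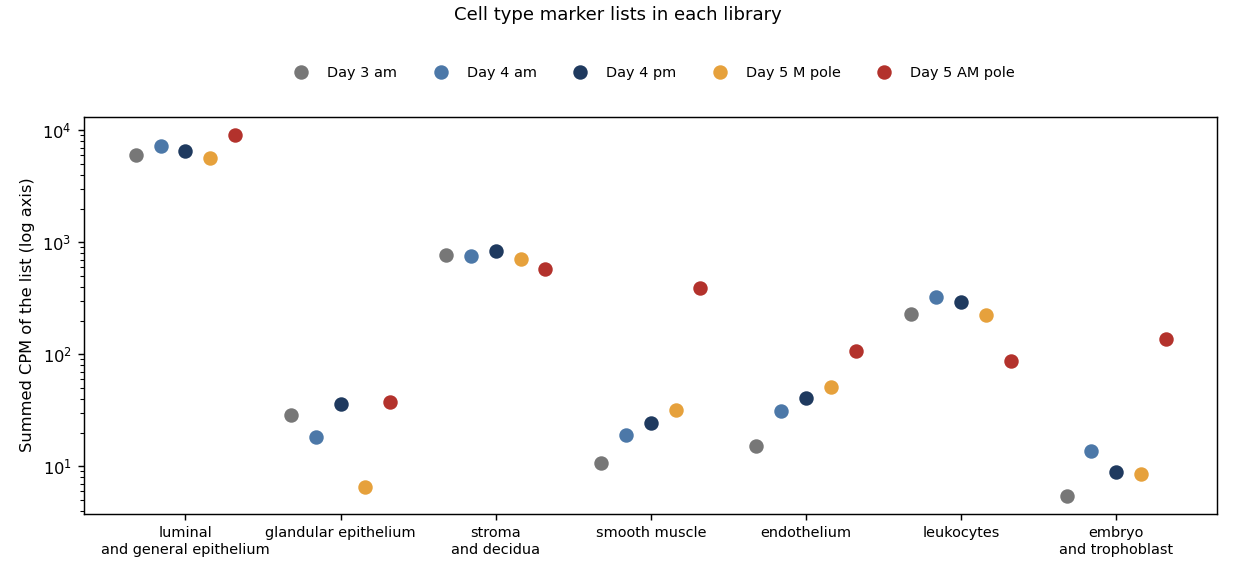
Summed CPM (vertical axis, log scale) of 7 lists of cell type markers (horizontal axis), with 1 point per library. The embryo and trophoblast list stood at 137 CPM in the AM pole library and at 5.47 to 13.8 CPM in the others, while the epithelial list varied from 5624 to 9140 CPM.

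The mRNA of arginase 2, an enzyme that supplies ornithine, was among the lowest of the measured members by level per length. *Arg2* (chr12:79130788-79156301, plus strand, in GRCm38/mm10 like all coordinates here) had 283 counts on day 3, 208 in the morning and 67 in the evening of day 4, and on day 5 had 254 at the M pole and 225 at the AM pole. The evening of day 4 was therefore the single low library, at 4.24 CPM (3.28 to 5.38) against 11.6 to 16.3 CPM elsewhere. From the morning to the evening of day 4 *Arg2* was lower, with a log2 difference of -1.43 (-1.87 to -1.05), and from that evening to day 5 it was higher by 1.66 (1.29 to 2.10) at the M pole and 1.60 (1.23 to 2.04) at the AM pole. The 2 poles did not differ in *Arg2* beyond counting error (-0.06, -0.33 to 0.20). Of the 1417 exon bases of *Arg2*, 285 are shared with *Vti1b* on the opposite strand, and the strand setting of the counting is not given in the sources used here, so reads of the overlap could belong to either gene.

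Arginase 1, the other arginase, had a different pattern. *Arg1* had 94, 34, 28 and 48 counts in the first 3 libraries and the M pole library but 1856 at the AM pole, a difference of 5.33 (4.98 to 5.83) between the day 5 libraries. On a scale of RPKM (CPM per kilobase of the deposited gene length), the ratio of *Arg2* to *Arg1* was 6.38 (4.42 to 9.46) on the morning of day 4, 5.52 (4.04 to 7.68) at the M pole and 0.126 (0.110 to 0.145) at the AM pole. *Arg2* was thus the more abundant arginase in 4 libraries and the less abundant in the AM pole library.

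*Odc1* (chr12:17544873-17551502, plus strand) makes putrescine from ornithine. Its counts were 1145 on day 3, 906 and 529 in the morning and evening of day 4, 807 at the M pole on day 5 and 4126 at the AM pole. The level per length was 25.9 RPKM (24.4 to 27.4) on day 3 and 13.1 (12.03 to 14.3) on the evening of day 4. At the AM pole it was 94.1 (91.2 to 97.0), far above all other libraries. *Odc1* was lower from day 3 to the morning of day 4 (-0.39, -0.51 to -0.26) and from then to the evening (-0.59, -0.75 to -0.44), neither past 2-fold. From the evening of day 4 it was higher by 0.37 (0.21 to 0.53) at the M pole and by 2.84 (2.71 to 2.97) at the AM pole, where 685 of the 12915 genes had a larger difference. Between the poles the difference was 2.47 (2.36 to 2.58), with 568 genes above it. The embryo markers given above were also highest in the AM pole library, and their part in the value of *Odc1* was not tested. In the annotated transcripts, 24.3% of the 50-base windows of *Odc1* also occur in transcripts of other genes, in 15 genes in all, and how reads with several alignments were counted is not given in the sources used here.

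The promoter of *Odc1* is shown because *Odc1* and *Smox* were the only members past 2-fold higher at the AM pole than at the M pole. The stretch lies before the earliest annotated start in RefSeq (GRCm38.p6, chr12:17544623-17544807, plus strand, 5′ to 3′), with GC boxes, the motif GGGCGG or its reverse complement CCGCCC, in capitals.
Odc1 promoter: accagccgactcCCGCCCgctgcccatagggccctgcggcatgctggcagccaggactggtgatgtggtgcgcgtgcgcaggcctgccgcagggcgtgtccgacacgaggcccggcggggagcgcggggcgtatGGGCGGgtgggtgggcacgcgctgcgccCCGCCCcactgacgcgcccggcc
It holds 3 GC boxes in 185 bases and is 77.8% G and C. Over the whole promoter window in the table, which reaches past the start, there were 4 GC boxes, and 5.49% of the 32851 promoters of the same length held 4 or more (35.7% held at least 1). The E-box CACGTG, the motif TGACGT of cAMP-responsive sites and the TATA motif TATAAA, each searched on both strands, were not in this window. They occur in 7.15%, 7.51% and 13.6% of all promoters. The rest of the gene, outside this window, was not searched. A match of letters is a description and not evidence of a bound factor.

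The antizymes and their inhibitor set how long ornithine decarboxylase lasts. *Azin1* (chr15:38487430-38519266, minus strand) had 5102 counts on day 3, 8240 and 10049 on day 4, 4556 at the M pole and 5487 at the AM pole. Its level per length went from 58.4 RPKM (56.8 to 60.1) on day 3 to 126 (124 to 129) on the evening of day 4, and stood at 48.6 (47.2 to 50.01) at the M pole and 63.4 (61.7 to 65.1) at the AM pole on day 5, so both day 5 libraries lay well below the day 4 evening. From that evening *Azin1* was lower past 2-fold at the M pole (-1.38, -1.43 to -1.33) and just inside 2-fold at the AM pole (-0.995, -1.04 to -0.95). *Oaz2* (chr9:65676548-65690300, plus strand) had 882, 1361, 986, 1298 and 1043 counts in the order above, and no comparison moved it past 2-fold. Its largest difference was 0.58 (0.45 to 0.70), from day 3 to the morning of day 4. From the evening of day 4 to the AM pole it was -0.04 (-0.17 to 0.09), which became 0.01 with DESeq2 size factors.

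The balance of *Odc1* mRNA to that of its regulators differed between libraries more than the regulators did. The ratio of *Odc1* to *Azin1* in RPKM was 0.443 (0.415 to 0.472) on day 3, 0.217 (0.202 to 0.233) and 0.104 (0.0950 to 0.113) in the morning and evening of day 4, 0.350 (0.324 to 0.377) at the M pole and 1.48 (1.43 to 1.55) at the AM pole. *Odc1* was the lower of the pair in 4 libraries and the higher around the embryo. Against *Oaz2* the ratio was 0.940 (0.860 to 1.03) on day 3, a value at which the 2 genes did not differ beyond counting error, then 0.388 to 0.482 in the day 4 libraries and at the M pole, and 2.86 (2.68 to 3.07) at the AM pole. These ratios are of mRNA and say nothing of protein.

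No ratio to *Oaz1* (antizyme 1, the most widely expressed antizyme) could be given. *Oaz1* had 1 count in the morning of day 4 and 0 in the other 4 libraries. *Amd1* (S-adenosylmethionine decarboxylase, which makes the aminopropyl donor) had 0 counts in all 5. For a count of 0 the exact Poisson interval reaches up to 0.198 to 0.233 CPM, which bounds the counted reads alone and not reads that the counting left out. Both rows overlap another row of the deposited table on the same strand. For *Amd1* (chr10:40287458-40302188, minus strand), 3197 of 3206 exon bases (99.7%) also belong to the row *Amd2*, and for *Oaz1* (chr10:80826656-80829290, plus strand) 962 of 1075 bases (89.5%) also belong to the row *Oaz1-ps*. Those 2 rows were at 0 in all 5 libraries too. Of the 516 rows with at least 80% of their exon bases in another row, 490 had at most 3 counts over the 5 libraries, against 5800 of the 20606 rows that share no base. Whether the overlap caused the zeros was not tested. The values of *Amd1* and *Oaz1* are therefore not read as absence of the mRNA.

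The synthases act in sequence, *Srm* making spermidine from putrescine and *Sms* spermine from spermidine. *Srm* (chr4:148591513-148594619, plus strand) had 289 counts on day 3, 124 and 266 in the morning and evening of day 4, 693 at the M pole and 755 at the AM pole. The morning of day 4 was the low library, at 6.90 CPM (5.74 to 8.23), and the day 5 libraries were the high ones, at 37.2 (34.4 to 40.0) and 43.8 (40.8 to 47.1). *Srm* was past 2-fold lower from day 3 to the morning of day 4 (-1.26, -1.58 to -0.96), past 2-fold higher from then to the evening (1.27, 0.97 to 1.60) and past 2-fold higher again to the M pole (1.14, 0.94 to 1.35) and to the AM pole (1.38, 1.18 to 1.59). Except in the comparison to the AM pole, the interval reached to within 2-fold. Between the poles the difference was 0.24 (0.09 to 0.39), and its sign turned to -0.07 when counts were scaled by library totals. *Sms* (chrX:157443954-157492046, minus strand) had 583, 794, 591, 848 and 1140 counts, and its largest difference was 0.82 (0.68 to 0.97), from the evening of day 4 to the AM pole. Of its 50-base windows, 17.5% also occur in other genes, nearly all in *Sms-ps*. The ratio of *Srm* to *Sms* in RPKM was 0.397 (0.326 to 0.480) on the morning of day 4, 1.26 (1.09 to 1.45) on day 3, 1.15 (0.987 to 1.33) on the evening of day 4, 2.08 (1.88 to 2.30) at the M pole and 1.68 (1.53 to 1.85) at the AM pole. *Sms* was the higher of the pair on the morning of day 4 alone.

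*Sat1* (chrX:155213139-155216409, minus strand) was the most abundant member. It had 16766 counts on day 3, 8743 and 12273 in the morning and evening of day 4, 23458 at the M pole and 32561 at the AM pole, and its mean CPM was above that of 99.6% of the genes kept. Its level per length was lowest on the morning of day 4, at 437 RPKM (428 to 446), and highest at the AM pole, at 1696 (1677 to 1714). Of the summed RPKM of the 8 members, *Sat1* took 55.2% on the morning of day 4 and 86.5% at the M pole. It was lower from day 3 to the morning of day 4 (-0.99, -1.03 to -0.95), just inside 2-fold, and higher by 0.67 (0.63 to 0.71) from then to the evening. From the evening of day 4 it was higher by 0.70 (0.67 to 0.73) at the M pole and, past 2-fold, by 1.29 (1.26 to 1.32) at the AM pole. *Sat1* was 66.4 times the level per length of *Odc1* at the M pole and 18.03 times at the AM pole.

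*Smox* (chr2:131491862-131525183, plus strand) differed most between libraries, 8.16-fold from the lowest to the highest. It had 2929 counts on day 3, 7164 and 3758 in the morning and evening of day 4, 912 at the M pole and 5510 at the AM pole. The M pole library was thus the low one and the morning of day 4 the high one, with levels per length of 21.6 RPKM (20.2 to 23.1) and 176 (172 to 180). *Smox* was higher by 1.24 (1.18 to 1.30) from day 3 to the morning of day 4, lower (-0.75, -0.81 to -0.69) to the evening, and from there lower (-2.28, -2.39 to -2.18) at the M pole but higher by 0.43 (0.37 to 0.49) at the AM pole. Between the poles it was 2.71 (2.61 to 2.81) higher at the AM pole, and 490 of 12915 genes had a larger difference. Embryo markers summed to 8.91 CPM on the evening of day 4, 8.47 at the M pole and 137 at the AM pole, and *Sox9* was low at the M pole as given above. Their part in the values of *Smox* was not tested. Relative to *Sat1*, *Smox* was at a ratio of 0.404 (0.391 to 0.417) on the morning of day 4 and 0.0192 (0.0179 to 0.0205) at the M pole, in RPKM. No 50-base window of *Smox* occurs in another gene.

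The promoter of *Smox* is given for the same reason as that of *Odc1*, again up to the earliest annotated start in RefSeq (GRCm38.p6, chr2:131491612-131491857, plus strand, 5′ to 3′) and with GC boxes in capitals.
Smox promoter: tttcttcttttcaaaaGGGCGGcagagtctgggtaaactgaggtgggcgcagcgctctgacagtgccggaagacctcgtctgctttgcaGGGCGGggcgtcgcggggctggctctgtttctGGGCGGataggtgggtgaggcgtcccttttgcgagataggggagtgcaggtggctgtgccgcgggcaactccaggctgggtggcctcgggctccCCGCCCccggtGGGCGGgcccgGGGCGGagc
It holds 6 GC boxes in 246 bases and is 67.9% G and C. The E-box, TGACGT and the TATA motif were not in its window either. RefSeq promoters were found for 7 of the 10 members, and *Srm*, *Azin1* and *Arg2* were not among them. Of the other 5, *Oaz2* had 4 GC boxes, *Sat1* had 2, *Amd1* had 1 and *Oaz1* had none but a TATA motif. *Sms* had 2 windows, 1 with 4 GC boxes and 1 with none and an E-box, the single E-box found. Windows with 4 or more GC boxes were therefore found both in members that differed between the poles past 2-fold and in members that did not.

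**Figure D3:**
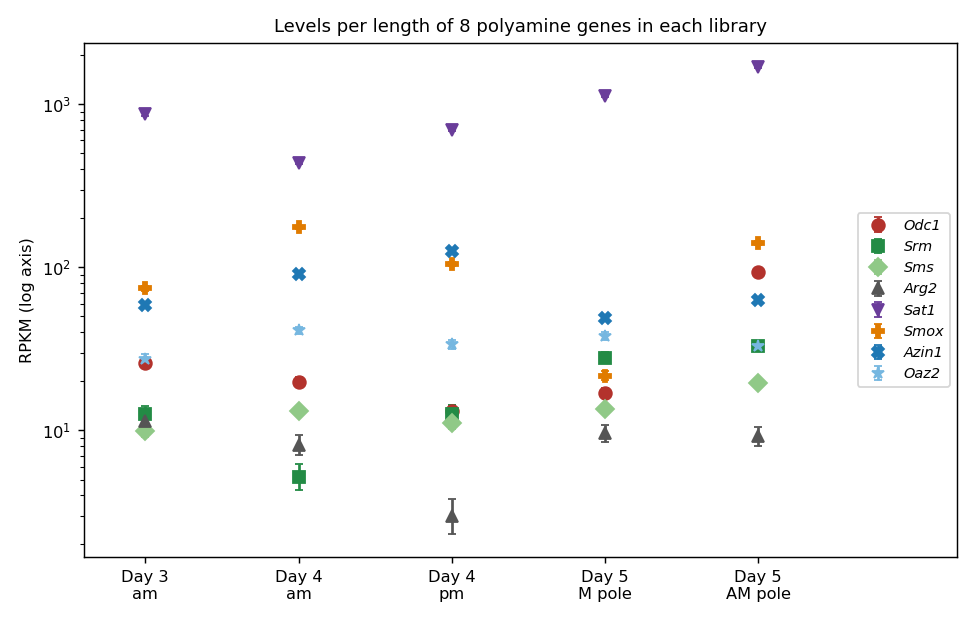
RPKM (vertical axis, log scale) of the 8 measured members in each of the 5 libraries (horizontal axis), where points are single libraries and bars exact 95% Poisson intervals. *Sat1* was on top throughout, while *Odc1* went from 17.0 RPKM at the M pole to 94.1 at the AM pole and *Smox* from 21.6 to 141.

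Ordered by level per length, the members kept a fixed top and changed places below it. *Sat1* was followed by *Smox* and *Azin1* on day 3 and on the morning of day 4, by *Azin1* and *Smox* on the evening of day 4, by *Azin1* and *Oaz2* at the M pole, and by *Smox* and *Odc1* at the AM pole. Neighbours whose intervals overlapped were *Oaz2* and *Odc1*, *Srm* and *Arg2*, and *Arg2* and *Sms* on day 3, *Odc1* and *Srm*, and *Srm* and *Sms* on the evening of day 4, and *Srm* and *Oaz2* at the AM pole. All other neighbours were apart beyond counting error. *Odc1* was the fifth of the 8 on day 3 and in both day 4 libraries, the sixth at the M pole and the third at the AM pole.

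Read together, the members gave these counts in the 5 comparisons, which share libraries with each other. From day 3 to the morning of day 4, 1 of 8 was past 2-fold higher (*Smox*) and 1 lower (*Srm*), where 7.47% and 11.5% of the 12915 genes were, and the median difference of the members was 0.01 beside 0.00 for all genes. From the morning to the evening of day 4, 1 was higher (*Srm*) and 1 lower (*Arg2*), with 7.21% and 6.95% of all genes, and the medians were -0.26 and 0.00. From that evening to the M pole, 2 were higher (*Srm* and *Arg2*) and 2 lower (*Smox* and *Azin1*), with 12.9% and 12.7% of all genes and medians of 0.33 and 0.01. From the evening to the AM pole, 4 were higher (*Odc1*, *Arg2*, *Srm* and *Sat1*) and none lower, with 19.1% and 20.7% of all genes and medians of 1.05 and -0.02. Between the poles, 2 were higher at the AM pole (*Smox* and *Odc1*) and none lower, with 13.4% and 15% of all genes and medians of 0.46 and -0.05. No test of these counts against the background was made.

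**Figure D4:**
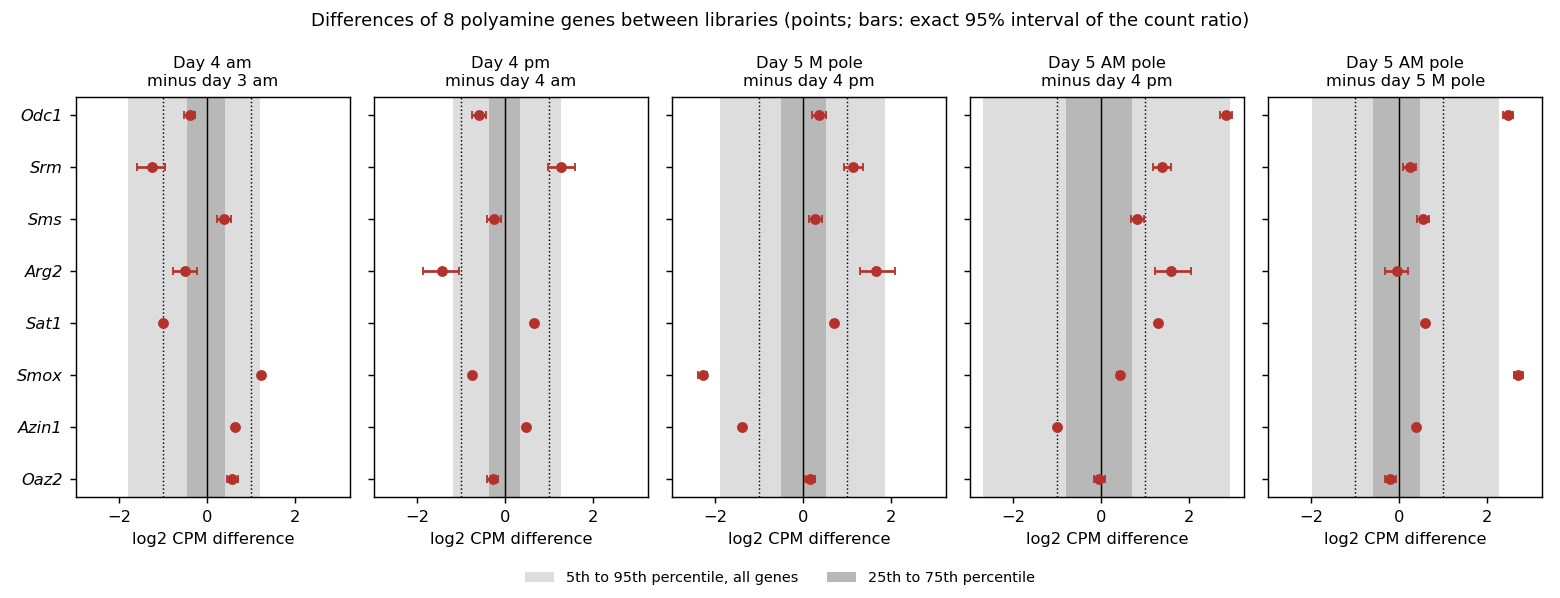
Differences in log2 CPM (horizontal axes) of the 8 members (rows) in the 5 comparisons (panels), with exact 95% intervals of the count ratio, dotted lines at 2-fold, and grey bands for the 5th to 95th and 25th to 75th percentiles of all 12915 genes. *Odc1* and *Smox* lay beyond the 95th percentile between the poles, and *Smox* fell outside the bands on the low side from the evening of day 4 to the M pole.

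Scaling bore on the size of the background. With library totals in place of TMM, the median difference of all genes moved from -0.05 to -0.36 between the poles, from 0.00 to -0.28 from day 3 to the morning of day 4 and from 0.01 to 0.23 from the evening of day 4 to the M pole. The genes past 2-fold then split into 1288 higher and 2807 lower between the poles (1729 and 1932 with TMM), 538 and 2209 from day 3 to the morning of day 4 (965 and 1480), and 2250 and 1264 to the M pole (1669 and 1639). The differences of *Odc1* and *Smox* between the poles were 2.16 and 2.40 on that scale.

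An exact test of edgeR was run on pairs of libraries with a dispersion fixed by hand, since none can be estimated. Its calls compare libraries and rest on that value. At 0.1 it called *Smox* lower at the M pole than on the evening of day 4, *Odc1* higher at the AM pole than on that evening, and both genes higher at the AM pole than at the M pole. No member was called within days 3 to 4. At a dispersion of 0.4 no member was called in any comparison. The share of all genes that this test called is not given here, so these calls have no background beside them.

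Of the genes around the pathway, 57 in all besides the members, 55 were found in the table and 40 were kept. Arginine and ornithine supply was represented by 6 kept genes. In the 5 comparisons in the order above, 0, 2, 0, 1 and 1 were past 2-fold higher. Lower were 2, 0, 2, 3 and 2. The background for this list and those that follow is the share of all 12915 genes. It was 7.47%, 7.21%, 12.9%, 19.1% and 13.4% higher and 11.5%, 6.95%, 12.7%, 20.7% and 15% lower. *Oat* (ornithine aminotransferase, which links ornithine to glutamate and proline) had the highest mean CPM of the 6 genes. Its counts were 3580, 3008, 7719, 2928 and 1062. It was highest on the evening of day 4, when *Arg2* was lowest, and lower at the AM pole than on that evening (-2.98, -3.08 to -2.89). *Paox* (which oxidizes the acetylated polyamines that *Sat1* makes) had 728, 264, 315, 3912 and 2543 counts. It was higher by 3.39 (3.23 to 3.57) at the M pole and by 2.88 (2.72 to 3.06) at the AM pole than on the evening of day 4, so that, unlike *Smox*, it was high at both poles. The other kept gene of that list of enzymes, *Sat2*, had 13 to 53 counts per library. *Azin2* was not found in the table, and *Amd2* and *Oaz3* were at 0.

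The synthases release methylthioadenosine, which is salvaged to methionine. Of 11 kept genes of the methionine cycle and this salvage, 0, 1, 2, 1 and 0 were past 2-fold higher and 2, 0, 0, 3 and 3 lower in the 5 comparisons. *Adi1*, a late step of the salvage, had 1924, 2593, 4271, 50545 and 30206 counts, with both day 5 libraries far above the rest. Its difference from the evening of day 4 was 3.33 (3.28 to 3.37) at the M pole and 2.70 (2.65 to 2.75) at the AM pole. *Apip*, the step of the salvage that dehydrates methylthioribulose phosphate, had 244, 215, 235, 140 and 62 counts and was lowest at the AM pole. Measured from the evening of day 4, these 2 genes of the salvage route thus differed in opposite directions at both poles. Between the poles both were lower at the AM pole, *Adi1* by -0.63 (-0.65 to -0.61) and *Apip* by -1.04 (-1.52 to -0.62).

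Spermidine also serves to make hypusine on the translation factor eIF5A. Of the 4 genes of this step, 1 was past 2-fold lower from day 3 to the morning of day 4 (*Eif5a2*, -2.21, -2.71 to -1.82) and none passed 2-fold in the other comparisons. *Eif5a*, the main form, had 15743, 12934, 14763, 18947 and 22767 counts, or 357 to 655 RPKM, within 2-fold in all libraries.

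Of 8 kept transport genes, 0, 2, 2, 3 and 2 were past 2-fold higher and 0, 0, 0, 1 and 3 lower. *Atp13a4*, of the family of P5-type ATPases that carry polyamines, had 0, 1, 13, 1588 and 5928 counts. It was near the floor before day 5. At the M pole it was 104 times higher than on the evening of day 4 (a log2 ratio of 5.92 to 7.61). At the AM pole it was 4.04 times higher again than at the M pole (a log2 ratio of 1.94 to 2.10). *Slc3a2*, the heavy chain of amino acid exchangers that also carry polyamines, had 1254, 788, 1022, 894 and 3461 counts. Like *Odc1* and *Arg1* it was high at the AM pole alone, by 2.07 (1.96 to 2.18) over the M pole.

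*Odc1* is a known target of the Myc factors. Of 9 kept genes of the Myc network, 0, 2, 4, 3 and 1 were past 2-fold higher and 3, 0, 0, 1 and 1 lower. *Mycn* had 765, 172, 328, 2576 and 2207 counts and was high at both poles (2.73, 2.57 to 2.91, and 2.62, 2.46 to 2.80, over the evening of day 4), whereas *Odc1* was high at the AM pole alone. *Myc* itself, named after its values were seen, had 869, 268, 561, 2209 and 1095 counts. It was past 2-fold higher at the M pole than on the evening of day 4 (1.74, 1.61 to 1.88) but not at the AM pole (0.84, 0.69 to 0.99). It was lower at the AM pole than at the M pole (-0.90, -1.003 to -0.79), where *Odc1* was higher. From the morning to the evening of day 4 the signs of *Myc* and *Odc1* also differed. In the remaining comparisons their signs were the same. Whether Myc factors had a part in the values of *Odc1* was not tested. *Mxd1*, a repressor of the network, had 247, 355, 177, 663 and 4397 counts and was 2.84 (2.73 to 2.96) higher at the AM pole than at the M pole. *Mxi1*, another repressor, had 972, 1744, 1170, 2971 and 2979 counts. It had the highest mean CPM of the list, a scale not corrected for gene length. Over all lists together, 1, 7, 9, 9 and 4 of the 40 kept genes were past 2-fold higher and 9, 0, 2, 9 and 9 lower. Of all 12915 genes, 7.47%, 7.21%, 12.9%, 19.1% and 13.4% were higher and 11.5%, 6.95%, 12.7%, 20.7% and 15% lower in the same order, and the counts of these lists were not tested against that background.

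**Figure D5:**
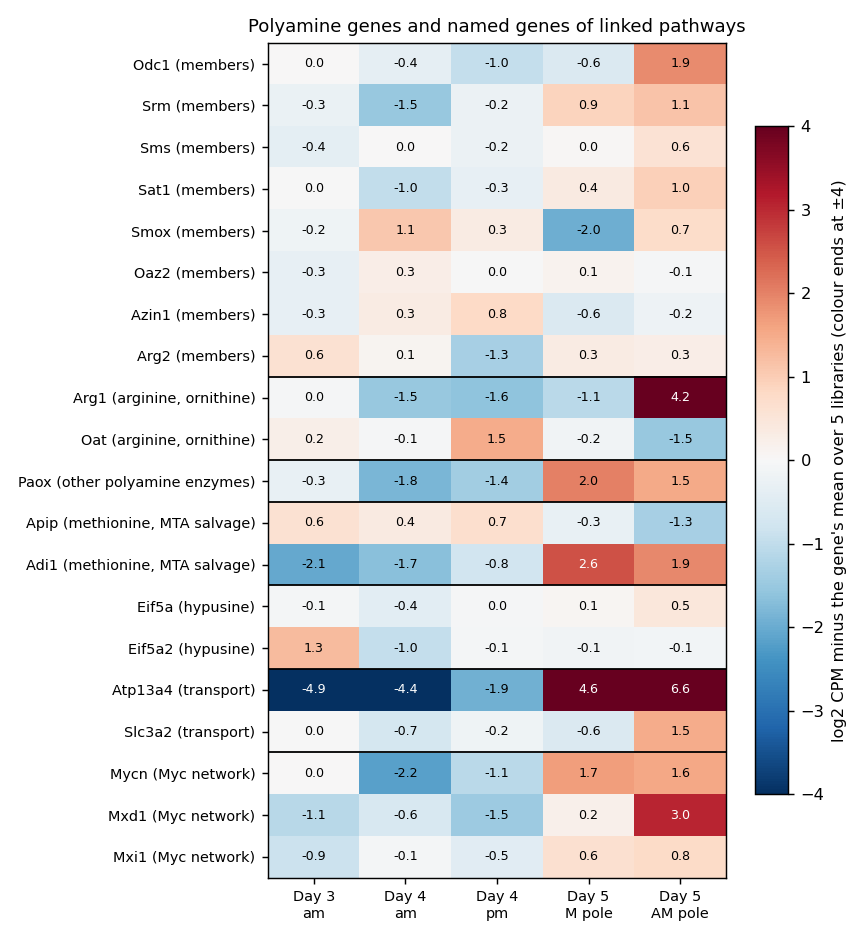
Log2 CPM minus the mean of the gene over the 5 libraries (numbers and colour, with the colour scale ending at 4 in either direction) for the 8 measured members and the named genes of linked pathways (rows) in each library (columns). *Odc1*, *Arg1*, *Slc3a2* and *Mxd1* stood out at the AM pole, whereas *Paox*, *Adi1* and *Mycn* were high at both poles and *Smox* was low at the M pole.

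Likeness of pattern was measured as the root mean square difference between log2 CPM profiles over the 5 libraries, each centred on its mean, among the 8842 genes that averaged 10 CPM or more. The profile nearest to *Odc1* was that of *Prkch*, at 0.06, with 506, 440, 241, 348 and 1784 counts, followed by *Pxdn* at 0.22 and *Pgk1* at 0.24. Nearest to *Sat1* were *Srgn* at 0.06, *Samd1* at 0.08 and *Herpud1* at 0.09. *Arg2* was nearest to *Rnf26* at 0.19, *Plxna1* at 0.21 and *Otud1* at 0.23. Among the members themselves the closest pairs were *Oaz2* with *Sms* at 0.33 and *Sat1* with *Srm* at 0.36, while *Smox* and *Srm* were the farthest apart at 1.75. With 5 libraries and this many genes, near profiles are a description of these libraries.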

How the data were processed

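RNA of the laser-microdissected luminal layer was sequenced in 5 libraries, 1 per condition, after SMART-seq v.4 amplification. The authors aligned reads with HISAT2 to GRCm38/mm10 and deposited raw counts per gene from featureCounts (Subread 2.0.0 in the submitters' processing notes), without normalization. The gene annotation, strand setting and handling of reads with several alignments are not given in the sources used here. Libraries of the study's other genotypes were not analysed here.

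Counts were scaled by TMM over the 5 libraries with edgeR 4.0.16 in R 4.3.3. A prior count of 2 was added before taking log2 CPM, and genes averaging under 1 CPM were dropped. RPKM used the deposited gene length. Intervals came from scipy 1.17.1 in Python 3.11.15 (pandas 2.3.3, numpy 2.4.6) and plots from matplotlib 3.10.9. With 1 library per condition no condition could be tested, and no SD or p-value is given. The intervals were checked on simulated counts with known fold changes. Those counts held Poisson error alone, so the check does not cover PCR copies or spread between mice.

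The members and lists were chosen with earlier results of these data known. Named were all members, the genes of the linked lists with a mean of at least 5 CPM and a change past 4-fold in any comparison, the most abundant gene of each list, and the 3 profiles nearest to *Odc1*, *Sat1* and *Arg2*. Ratios to *Oaz2* and *Azin1* and of *Smox* to *Sat1*, and the marker genes named singly, were added after the values were seen. Exon overlaps and shared 50-base windows were computed from the deposited coordinates and GENCODE vM21 transcripts. Promoters are those of RefSeq GRCm38.p6. Alternatives were DESeq2 1.42.0 size factors, library totals with and without *Rn45s* and *Lars2*, a prior count of 0.5, calls at 1.5-fold and 4-fold, and edgeR's exact test at fixed dispersions of 0.1 and 0.4. TMM over the 4 libraries other than the AM pole was chosen after seeing the data.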

Additional observations from a re-analysis of the deposited data

Results flagged for a closer look

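*Smox* differed between the day 5 libraries in direction. Measured from the evening of day 4, it was lower at the M pole (-2.28) and higher at the AM pole (0.43), which leaves a difference of 2.71 in log2 CPM between the poles. There is 1 library on each side, so the difference was not tested. The library of the evening of day 4 carries no label of a pole. A difference between the poles that was already there cannot be told apart from one of day 5.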

How the results depend on the processing

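No difference past 2-fold changed sign. The genes past 2-fold (higher and lower) were 1 and 1 from day 3 to the morning of day 4, 1 and 1 to the evening, 2 and 2 from the evening to the M pole, 4 and 0 to the AM pole, and 2 and 0 between the poles. At 1.5-fold these became 2 and 2 in the first comparison, 2 and 3 in the second, 3 and 2 from the evening to the M pole, 5 and 1 to the AM pole, and 3 and 0 between the poles. At 4-fold they were 0 and 0, 0 and 0, 0 and 1, 1 and 0 from the evening to the AM pole, and 2 and 0 between the poles. With the exact test at a dispersion of 0.1 they were 0 and 0, 0 and 0, 0 and 1, 1 and 0, and 2 and 0, and at 0.4 all were 0. Shares of all genes at 1.5-fold, at 4-fold and with the exact test are not given here, so these counts have no background beside them. Library totals gave 0 higher and 2 lower from day 3 to the morning of day 4 (*Smox* came to 0.94 and *Sat1* to -1.29) and 1 lower from the evening to the AM pole (*Azin1*, -1.08). Totals without *Rn45s* and *Lars2* also gave 2 lower and 1 lower there. The cause was not tested. DESeq2 size factors and a prior count of 0.5 moved none of these counts by over 1.5-fold, and TMM without the AM pole library left the counts of the 3 comparisons that do not use it as they were. Of 40 differences of members, 37 stayed within their counting interval with DESeq2 factors, 40 with a prior count of 0.5 and 13 with library totals, where they shifted by -0.31 to 0.23. Signs turned for *Oaz2* from the evening to the AM pole (0.01 with DESeq2 factors) and for *Srm* between the poles (-0.07 and -0.05 with the 2 kinds of totals). Leaving out a replicate was not possible with 1 library per condition. No paired analysis was possible because no group has a second library. RPKM shifted by -10.0% to 13.3% with library totals. Depth limits *Arg2* most, with 67 counts in its lowest library.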
